A study of Mus musculus with 4 samples.

Results

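MHC class II high macrophages are described here in CT26 tumours of mice given liproxstatin-1 and of control mice. They are the macrophages with the most transcript of the MHC class II genes H2-Aa, H2-Ab1 and H2-Eb1. A cell was called a macrophage at 10 or more unique molecular identifiers (UMIs, single counted transcript molecules) of C1qa, C1qb and C1qc together per 10,000 UMIs and at most 1 of Cd3d and Cd3e. Cells with 2 or more of the proliferation genes Mki67, Top2a and Birc5, or of the tissue-resident genes Lyve1, Cd209f and Cd209g, were set aside. Of the cells left, pooled over the libraries, the top 10% by the hypoxia genes Hilpda, Ndrg1 and Adm and then the top 25% by Mrc1, Folr2 and Gas6 were set aside as well. The top 35% of what remained by H2-Aa, H2-Ab1 and H2-Eb1 are the members, 2188 cells of 27447 kept cells and of 13109 macrophages. The 4064 cells below that limit, which lay at 56.1 UMIs per 10,000, are called the remaining macrophages throughout. Measured expression thus chose the cells, so their MHC class II level, and every difference from the remaining macrophages, is a description and was not tested.

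The tumours were grown from CT26, an established mouse line of colon carcinoma. Per the labels, 2 libraries came from Balb/c mice given liproxstatin-1 for 8 days and 2 from control mice, all 9 weeks old and all bearing CT26 tumours, and CD45, the surface protein of leukocytes, was used to pull the cells out of the tumours with magnetic beads. Liproxstatin-1 blocks ferroptosis, a form of cell death driven by iron and peroxidised lipids, and the title of the series names ferroptosis in neutrophils of tumours. The droplet protocol reads the 3′ end of transcripts. Liproxstatin replicates 1 and 2 gave 658 and 909 members with 15981468 and 20853633 UMIs, against 262 and 359 members with 6593196 and 10205644 UMIs in control replicates 1 and 2. Median UMIs per member were 24200.5 and 21748 in liproxstatin libraries, against 26619.5 and 27516 in control libraries. No pair of libraries shared more than 0.290% of the cell barcodes of the smaller one. Nothing in the labels says that the replicates are separate animals, so the p-values refer to the spread among the 4 libraries and may reflect technical variation only.

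MHC class II molecules present peptides from engulfed protein to CD4 T cells. Their alpha and beta chains (H2-Aa, H2-Ab1, H2-Eb1) pair with the invariant chain Cd74 on the way to the endosome, where H2-DM (H2-DMa, H2-DMb1, H2-DMb2) exchanges the remnant of that chain for a peptide. Ciita, a co-activator that interferon gamma induces in macrophages, switches these genes on together through the X and Y boxes of their promoters. In tumours, macrophages rich in MHC class II are usually set against those rich in Arg1, Spp1 or Mrc1.

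The promoters of class II genes are shown because the cells were chosen on these transcripts. Each stretch is 110 bases, running from 130 to 21 bases before the transcript start that RefSeq annotates, 5′ to 3′ on the strand of the gene. GENCODE M21 lets the spans of H2-DMb2 and H2-DMb1 begin earlier, at 34143307 and 34153072 (GRCm38), so the stretch shown for H2-DMb2 lies inside that span and the one for H2-DMb1 mostly so. The sequences are RefSeq's for GRCm38.p6 (a C57BL/6J genome, whereas the mice were Balb/c, whose alleles may differ). Capitals mark TGATTGG, the core of the Y box, and GATGATGC, an X2-like motif.
H2-Eb1, chr17:34305737-34305846, plus strand: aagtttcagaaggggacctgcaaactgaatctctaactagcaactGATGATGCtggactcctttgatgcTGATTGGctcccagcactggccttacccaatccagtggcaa
H2-Aa, chr17:34287844-34287953, minus strand: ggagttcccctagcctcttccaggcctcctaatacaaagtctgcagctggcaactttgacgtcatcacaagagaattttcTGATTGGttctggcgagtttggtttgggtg
H2-DMb1, chr17:34153061-34153170, plus strand: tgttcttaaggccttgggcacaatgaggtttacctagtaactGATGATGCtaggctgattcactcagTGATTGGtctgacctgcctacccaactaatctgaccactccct
H2-DMb2, chr17:34145119-34145228, plus strand: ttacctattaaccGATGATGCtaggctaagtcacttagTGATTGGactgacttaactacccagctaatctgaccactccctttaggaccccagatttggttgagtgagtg

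Both strands of the 250 bases before the RefSeq start were searched. The Y box core TGATTGG was found in 4 of the 5 class II genes with an entry and in 7.23% of 32851 promoters. The X2-like motif GATGATGC was found in 3 of 5 and in 0.575% of all promoters. The 2 motifs stood 16 bases apart in H2-Eb1 and 17 bases apart in H2-DMb1 and H2-DMb2. The genes H2-Aa and H2-Eb1 span 34282744 to 34287823 and 34305867 to 34316674 on chromosome 17 (GRCm38, GENCODE M21). A match to these letters is a description of the sequence and does not show binding.

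Of the markers given for the cells, Cd74, Cxcl9 and Cx3cr1 were higher in the members than in the remaining macrophages of all 4 libraries, and Ms4a7 was not. Levels are given in CPM, the UMIs of a gene per 1000000 UMIs of that class in that library. Cd74 had 13122 and 14148 CPM in the members of liproxstatin replicates 1 and 2 and 13965 and 13649 CPM in those of control replicates 1 and 2, against 2517, 2976, 2708 and 2334 CPM in the remaining macrophages of the same libraries. Cxcl9, a chemokine that draws T cells and is induced by interferon gamma, had 2136, 1637, 1802 and 1621 CPM in members, against 847, 753, 880 and 556 CPM in remaining macrophages. Cx3cr1, the fractalkine receptor of monocytes and macrophages, had 342, 273, 345 and 372 CPM, against 191, 189, 239 and 193 CPM. For Ms4a7, a membrane protein of tumour and tissue macrophages, the values were 923, 789, 971 and 864 CPM, against 997, 928, 1246 and 766 CPM. In 3 of 4 libraries Ms4a7 was thus lower in members, and it did not mark them within macrophages.

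Macrophage and dendritic cell genes were then compared between the classes. Csf1r, the receptor for the macrophage growth factor CSF1, had 466, 418, 450 and 430 CPM in members, against 380, 369, 367 and 343 CPM in remaining macrophages. Dendritic cells also carry much MHC class II. Flt3, the receptor dendritic cells depend on, had 0.3 to 1.4 CPM in members, against 0.2 to 0.6 CPM in remaining macrophages. Zbtb46, a transcription factor of classical dendritic cells, had 0.3 to 1.0 CPM, against 0.1 to 0.5 CPM. Of the markers of type 1 dendritic cells, Xcr1 had 4.0 and 4.3 CPM in liproxstatin and 5.6 and 3.6 CPM in control members, against 1.2, 1.2, 3.3 and 1.7 CPM in remaining macrophages. Clec9a had 3.0, 1.4, 0.76 and 2.1 CPM in members, against 0.40, 0.10, 0.24 and 0.65 CPM. Batf3 had 30.7, 31.6, 33.7 and 35.7 CPM in members, against 18.4, 17.2, 26.6 and 21.1 CPM, and Wdfy4 21.1 to 30.5 CPM, against 24.0 to 27.3 CPM. The 4 type 1 markers together came to 68.2, 63.6, 61.1 and 68.8 CPM in members, against 47.2, 42.7, 54.1 and 48.0 CPM in remaining macrophages. Mgl2, a lectin of type 2 dendritic cells that macrophages also express, reached 55.6 to 96.9 CPM. The summed 5 markers of type 2 dendritic cells came to 76.8 and 116 CPM in liproxstatin members and 97.4 and 105 CPM in control members, against 40.1, 56.6, 52.2 and 63.2 CPM in remaining macrophages. Of the members, 1.98% and 1.10% in liproxstatin and 1.91% and 1.11% in control libraries had dendritic cell genes at 2 or more UMIs per 10,000, against 0.587%, 0.560%, 1.17% and 0.749% of remaining macrophages. Their part in the differences between the classes was not tested.

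Beyond the genes that chose them, the members carried more of the antigen-loading machinery and less of the genes of the Arg1 and Spp1 kind. Ciita, on chromosome 16 from 10480059 to 10528418, had 73.2, 70.5, 56.3 and 71.2 CPM in members of liproxstatin replicates 1 and 2 and control replicates 1 and 2. Its mean log2 ratio to the remaining macrophages, taken per library with 1 CPM added, was 2.60. H2-DMb1 and H2-DMb2 stood at 2.50 and 1.86 on this scale, and H2-DMa at 0.85. The difference was small for the protease Ctss (0.33), which trims the invariant chain, and for the thiol reductase Ifi30 (0.25), and Ctsl was lower in members (-0.96).

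Genes outside antigen presentation were also higher in members than in the remaining macrophages. Dnase1l3, a secreted nuclease that digests DNA of dying cells, had the highest mean log2 ratio of all by the naming rule (2.65), with 44.7, 44.1, 49.6 and 63.9 CPM in members. Complement C6 (1.85), the membrane proteins Tmem176b (1.70) and Tmem176a (1.69), the profilin receptor Tlr12 (1.68) and the integrin Itgax (1.40), which encodes CD11c, followed. C3 (1.32), the receptor kinase Axl (0.88), which takes part in the uptake of dying cells, Apoe (0.79), Il1b (0.68) and Cd86 (0.56) were also higher in members in all 4 libraries. Against the macrophages set aside by Mrc1, Folr2 and Gas6, the mean log2 ratio of members was 2.47 for Dnase1l3, 2.39 for Itgax, 1.47 for Axl, 1.31 for C3 and 1.30 for Il1b. It was 0.15 for Apoe, with -0.02 in liproxstatin replicate 2, and -0.24 for C6, so these genes were not set apart from that class. Lyz1 (1.68) varied, with per-library ratios between 0.31 in control replicate 1 and 3.82 in control replicate 2.

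Lower in members were the lipolysis inhibitor G0s2 (-2.75), the matrix protein Spp1 (-1.85), the haem oxygenase Hmox1 (-1.69), the arginase Arg1 (-1.61), Pdpn (-1.52) and the platelet factor Pf4 (-1.48). Arg1 had 143 and 237 CPM in liproxstatin and 76.1 and 145 CPM in control members, against 411 and 536 CPM in liproxstatin and 269.5 and 557 CPM in control remaining macrophages. The neutrophil genes S100a9 (-2.67) and S100a8 (-2.31) and the granzymes Gzmc (-2.50) and Gzmb (-1.56) were lower as well. The 5 neutrophil markers together came to 121, 128, 53.5 and 227 CPM in members, against 671, 368, 397 and 589 CPM in remaining macrophages, and the part of other cells' transcripts in these differences was not tested. Of 4857 genes at 20 CPM or more in either class, 922 were higher and 1884 lower in members in all 4 libraries, 14 and 10 of them by a log2 ratio of 1 or more.

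**Figure D1:**
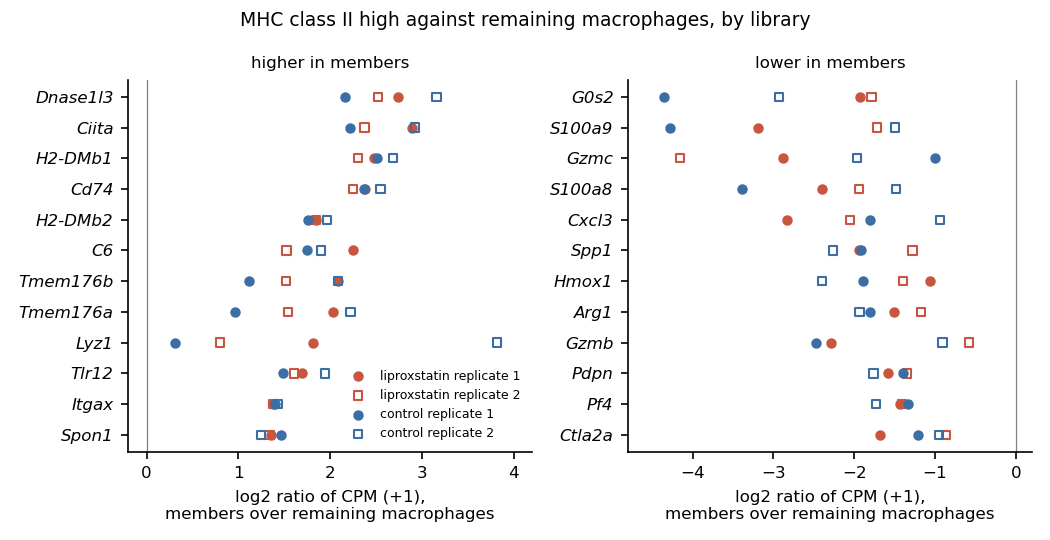
Log2 ratio of CPM (with 1 CPM added) in MHC class II high over remaining macrophages for the 12 genes with the highest and the 12 with the lowest mean ratio. Each point is 1 of 4 libraries. Cd74 lies between 2.25 and 2.55 in every library, whereas Lyz1 spreads from 0.31 to 3.82.

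MHC class II transcript ran as a range through these macrophages, and no gap set the members apart. Members and remaining macrophages together were cut into 5 equal bins by H2-Aa, H2-Ab1 and H2-Eb1, with medians of 0.9, 6.3, 24.2, 70.8 and 171 UMIs per 10,000. From the lowest to the highest bin, pooled over libraries, Cd74 had 475, 1689, 4443, 8907 and 17092 CPM and Ciita 1.6, 6.5, 16, 43.2 and 88.8 CPM. Cxcl9 followed the same order, with 460, 658, 1050, 1342 and 2064 CPM. Its neighbour among interferon-induced chemokines, Cxcl10, did not, with 395, 397, 446, 381 and 399 CPM. Along the same bins Hmox1 had 706, 376, 170, 127 and 111 CPM, Spp1 1604, 951, 700, 512 and 195 CPM, and the monocyte-drawing chemokine Ccl2 3985, 2852, 2391, 1826 and 1073 CPM. Pooled over libraries, median UMIs per cell were between 21593 and 25182 in the 5 bins, but the 218 cells of control replicate 1 in the lowest bin had a median of 3784.5, and the part of depth in that bin was not tested. The 200 cells just above the limit and the 200 just below it had 8052 and 6747 CPM of Cd74 and 1327 and 908 CPM of Cxcl9. In all, 587 cells lay between 0.8 and 1.25 times the limit, 305 of them members.

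**Figure D2:**
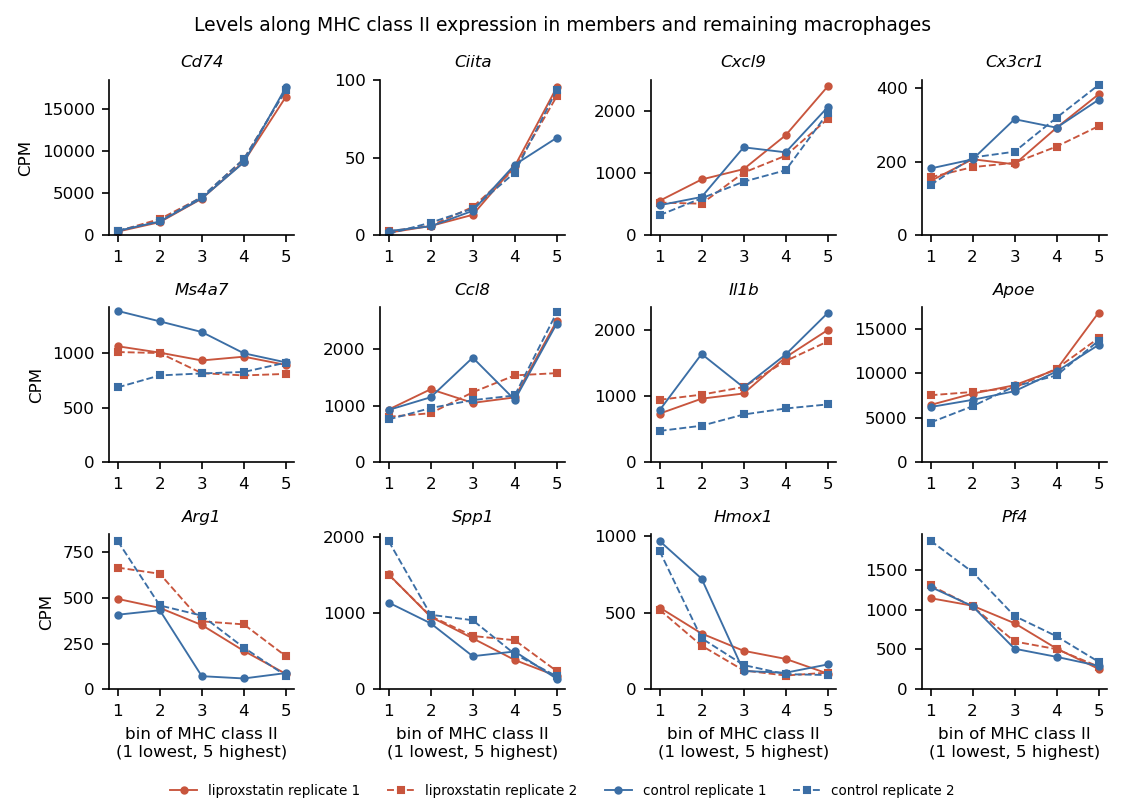
CPM of 12 genes in 5 equal bins of MHC class II transcript (H2-Aa, H2-Ab1 and H2-Eb1 per 10,000 UMIs; 1 lowest, 5 highest), members and remaining macrophages together, with a line for each library. Cd74 and Ciita climb in every library, Arg1, Spp1, Hmox1 and Pf4 are lowest in the upper bins, and Ms4a7 has no common direction. Il1b is lowest in control replicate 2 in each bin.

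Single members differed widely in Cxcl9. The 10th percentile, median and 90th percentile of members were 0, 5.55 and 54.6 UMIs of Cxcl9 per 10,000, against 73.4, 127 and 221 UMIs for Cd74. After cells were thinned to 5000 UMIs each, which left out 135 members and 835 remaining macrophages with fewer, 69.9% of members and 45.1% of remaining macrophages had a Cxcl9 UMI, and 82.7% and 60.2% before thinning. T cells, which should not express it, had one in 5.10% of cells after thinning, at a median of 10493 UMIs before thinning, against 23624 in members and 23448.5 in remaining macrophages. Within the thinned members, Cx3cr1 was detected in 55.9%, 55.8%, 58.4% and 60.6% of the cells with Cxcl9 of liproxstatin replicates 1 and 2 and control replicates 1 and 2, against 55.7%, 54.5%, 50% and 64.5% of those without. A Cx3cr1 UMI was found in 17.5% of thinned T cells. Detection of Cxcl9 and of Cx3cr1 was thus not exclusive in members.

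The members made up a larger share of the macrophages in both liproxstatin libraries. They were 17.5% (95% Wilson interval 16.3% to 18.8%) and 22.8% (21.5% to 24.1%) of the macrophages of liproxstatin replicates 1 and 2, against 12.8% (11.4% to 14.3%) and 10.8% (9.82% to 11.9%) in control replicates 1 and 2. The intervals cover counting error only. The means were 20.1% ± 3.71 in liproxstatin and 11.8% ± 1.40 in control libraries (SD, n = 2 each), a difference of 8.33 percentage points with a two-sided exact permutation p of 0.33, the smallest that 2 against 2 libraries can give. Of members and remaining macrophages together, members were 35.5% and 42.1% in liproxstatin and 27.6% and 27.7% in control libraries. As the percentile steps of the rule pooled the libraries, a shift in the 3 genes and a shift in the number of cells above the limit cannot be told apart. Doublet calls took 6.53% and 8.36% of members in liproxstatin, against 2.67% and 3.62% in control libraries, and the difference was 8.53 points with those cells left out. The number of doublet calls in a library was set in advance from its number of barcodes. Their larger share in liproxstatin libraries is thus not read as a result. When the steps were taken within each library, which fixes the share apart from the macrophages set aside earlier, the difference was 2.12 points.

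**Figure D3:**
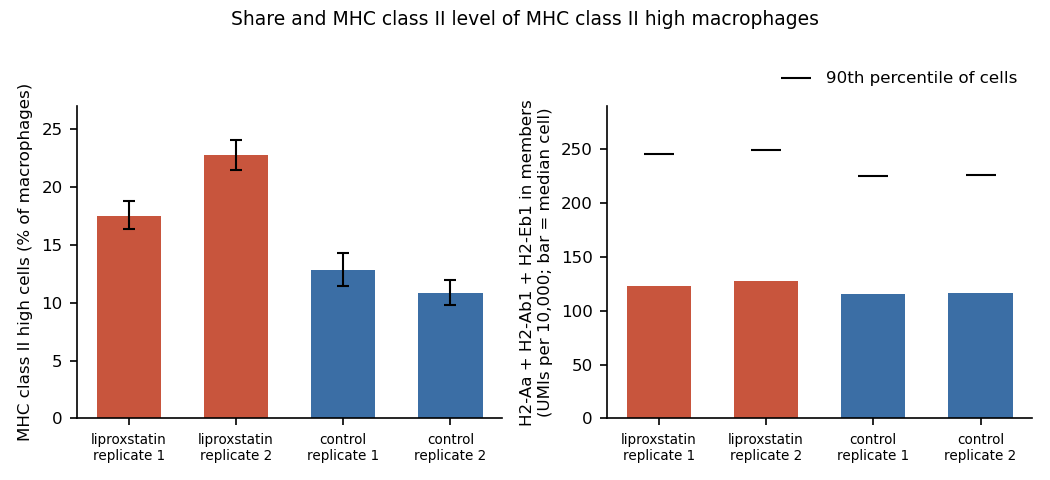
Left, members as a percentage of the macrophages of each library, with 95% Wilson intervals. Right, UMIs of H2-Aa, H2-Ab1 and H2-Eb1 per 10,000 in the median member (bars) and at the 90th percentile of members (dashes). The liproxstatin libraries stand at 17.5% and 22.8%, both above the control libraries, while the median members lie between 116 and 128.

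With liproxstatin-1, 74 of 11606 genes tested changed in the members, 63 higher and 11 lower (edgeR quasi-likelihood test on UMIs summed per library, Benjamini-Hochberg adjusted p under 0.05). That is 0.638% of the genes tested, 0.543% higher and 0.0948% lower. The 63 include Ndrg1 (log2 0.55), a gene of the rule, whose values helped to choose the cells, so its call is not read as a result. At an unadjusted p under 0.05 there were 1242 genes. For 40.7% of all genes tested both liproxstatin values lay on one side of both control values, above for 18.5% and below for 22.3%. The number of calls rested on the libraries present: it was 1 without liproxstatin replicate 1, 3 without liproxstatin replicate 2, 383 without control replicate 1 and 228 without control replicate 2. None of the 74 was among the calls without either liproxstatin library, whereas all 74 kept their direction and an unadjusted p under 0.05 with any of the 4 libraries left out.

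Genes known to be induced by glucocorticoids rose in liproxstatin members, 7 of the 18 tested from a list of 20, against 0.543% of all genes tested. None fell, 14 did not overlap between groups, all of those higher (18.5% of all genes tested were), and the median log2 change was 0.62, against -0.00 over all genes tested. This list and those below were chosen with earlier results of these data known, so their counts beside all genes are a description. Tsc22d3, which encodes the glucocorticoid-induced leucine zipper GILZ (chromosome X, 140539528 to 140600659, minus strand), had 134 and 127 CPM in liproxstatin members, against 70.7 and 62.9 CPM in control members, a log2 change of 0.97 ± 0.11 (SE, adjusted p = 0.000399). The period clock gene Per1, a direct target of the glucocorticoid receptor (chromosome 11, 69095217 to 69109960), had 30.0 and 24.9 CPM against 9.56 and 6.76 CPM, a log2 change of 1.80 ± 0.17 (adjusted p = 0.000389). Both genes had no overlap between groups and no more than 4.8% of their UMIs in any one member of a library.

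Fkbp5, a co-chaperone that dampens the glucocorticoid receptor, had 21.6 and 14.4 CPM in liproxstatin members, against 5.92 and 7.35 CPM in control members, a log2 change of 1.42. Klf9, a zinc-finger repressor, had 10.4 and 9.83 CPM against 3.03 and 5.98 CPM (1.12), and Tgfb3, a cytokine of the TGF-beta family, 13.3 and 9.83 CPM against 5.01 and 2.74 CPM (1.64). The regulatory subunit of PI3 kinase, Pik3r1, rose by 0.85, and the metal-binding Mt2 by 0.57. Dusp1, a phosphatase that ends MAP kinase signalling, had 717 and 727 CPM against 494 and 338 CPM without passing the test (log2 0.80, adjusted p = 0.33). The receptor itself, Nr3c1, had 58.1 and 50.4 CPM against 47.5 and 50.3 CPM. Sgk1 had 97.2 and 97.6 CPM in liproxstatin members and 90.4 and 38.7 CPM in control members, so that control replicate 2 alone stood apart.

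**Figure D4:**
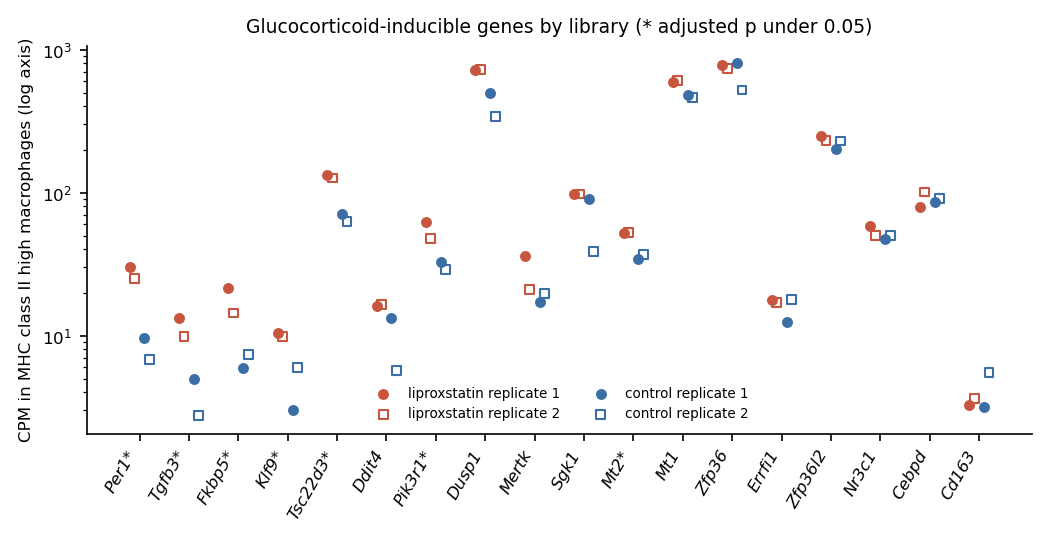
CPM (log axis) of the 18 tested glucocorticoid-inducible genes in the members of each library, ordered by log2 change. Asterisks mark the 7 genes with an adjusted p under 0.05. For Per1, Tgfb3, Fkbp5, Klf9 and Tsc22d3 both liproxstatin libraries lie above both control libraries, while for Cd163, at the right end, they overlap.

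Immediate early and dissociation-induced genes also had higher values in liproxstatin members, with 1 call. Of 27 tested, Fosb rose (213 and 177 CPM in liproxstatin members, against 132 and 114 CPM in control members, log2 0.68, adjusted p = 0.017), 14 did not overlap and were higher (18.5% of all genes tested were), and the median log2 change was 0.48. It was 0.15 without control replicate 2 and 0.75 without control replicate 1. Dusp1 and Zfp36 are on both lists. In the remaining macrophages 6 of the 27 rose (0.306% of all genes tested did), Fosb, Btg2, Dusp1, Klf4, Klf6 and Hsph1. None fell there, and the median log2 change was 0.57. The median share of mitochondrial UMIs was 3.43% and 3.73% in liproxstatin members, against 2.87% and 3.46% in control members. What part cell handling had in the changes was not tested.

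Among genes of suppression and tissue remodelling, 5 of 21 tested rose (0.543% of all genes tested did) and none fell, with a median log2 change of 0.61. Of the 21, 10 did not overlap between groups, all of those higher (18.5% of all genes tested were). In the remaining macrophages 1 of 22 rose, Edn1, with a median log2 change of 0.27. At an unadjusted p under 0.05 (edgeR), 8 of these 22 were higher and 1 lower, where 1559 of all 12750 genes tested passed. In members 7 of the 21 were higher and 0 lower, where 1242 of 11606 passed. Of the 5 calls in members, only Retnla was also called in the difference in response between the classes. The matrix glycoprotein Thbs1 had 34.0 and 30.4 CPM in liproxstatin members, against 17.1 and 16.4 CPM in control members, a log2 change of 0.96 ± 0.13 (adjusted p = 0.0019). Nt5e, the ectoenzyme CD73 that makes adenosine, had 7.57 and 7.0 CPM against 3.03 and 2.65 CPM (1.39), and Cd38, an ectoenzyme that consumes NAD, 104 and 89.9 CPM against 65.1 and 63.3 CPM (0.61). These groups did not overlap. The other calls of the list rested on few cells. Chil3 (6.32 and 5.80 CPM against 0.455 and 0.392 CPM, log2 3.85) was detected in 16 and 30 liproxstatin and 2 and 2 control members. Retnla (4.82 and 7.19 CPM against 1.06 and 1.08 CPM, log2 2.51) had 64.9% and 89.3% of its UMIs in a single member of each liproxstatin library. Arg1, of the same list, had 143 and 237 CPM against 76.1 and 145 CPM, which overlap (log2 0.80, adjusted p = 0.745).

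Co-stimulation and checkpoint genes gave 2 calls of 17 tested, both higher (0.543% of all genes tested were called higher), with a median log2 change of 0.24. Without overlap, 6 of the 17 were higher and 3 lower, against 18.5% and 22.3% of all genes tested. Cd80, which engages CD28 and CTLA-4 on T cells, had 14.9 and 12.9 CPM in liproxstatin members, against 6.83 and 7.35 CPM in control members (log2 0.97 ± 0.17, adjusted p = 0.016). Havcr2, the inhibitory receptor TIM-3, had 51.9 and 38.6 CPM against 26.8 and 24.5 CPM (log2 0.83, adjusted p = 0.017). Cd86, the other ligand of CD28, had 146 and 125 CPM against 109 and 92.8 CPM, with a log2 change of 0.43 that did not pass (adjusted p = 0.13). Cd274, which encodes PD-L1, had 101 and 89.6 CPM against 93.0 and 69.1 CPM, and the groups overlapped.

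In the other immune lists single genes passed. The complement component C3 had 112 and 101 CPM in liproxstatin members, against 71.6 and 54.3 CPM in control members (log2 0.77, adjusted p = 0.047), the only call of 16 complement and Fc receptor genes. Traf1, an adaptor of TNF receptor signalling, had 24.1 and 24.9 CPM against 15.9 and 12.3 CPM (log2 0.83), the only call of 24 NF-kappaB genes, and Malt1, a protease of the same pathway named by its small p, 49.4 and 44.4 CPM against 27.6 and 21.2 CPM (log2 0.97). Ifnb1, which encodes interferon beta, had 22 and 35 UMIs in liproxstatin members and none in control members, at least 8.67-fold higher against a floor of 3 counts over the control group. Of those UMIs, 77.3% and 97.1% came from a single cell of each library, so the bound rests mostly on those cells and does not hold for members at large. The other 24 genes tested of the type I interferon list passed in neither direction.

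The gene lists closest to ferroptosis gave a single call. Slc7a11, which encodes the cystine importer that feeds glutathione synthesis, had 14.6 and 13.1 CPM in liproxstatin members, against 5.92 and 7.15 CPM in control members (log2 1.08 ± 0.17, adjusted p = 0.011), the only call of 22 ferroptosis-suppressing and glutathione genes. Its partner chain Slc3a2 had 233 and 228 CPM against 224 and 184 CPM. Gpx4, the peroxidase that clears lipid peroxides, had 257 and 292 CPM against 272 and 309 CPM (log2 -0.07 ± 0.11), and the groups overlapped. Of 18 genes that promote lipid peroxidation none passed, and their median log2 change was -0.00. Acsl4, which loads membranes with polyunsaturated lipids, had 60.4 and 46.2 CPM against 51.6 and 45.9 CPM.

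The level of MHC class II genes in members is largely set by the rule, which kept cells above 1 limit in all libraries, so their values in the 2 groups are given as a description. None of the 14 tested MHC class II presentation genes that the rule did not use passed the test, and their median log2 change was 0.04. Cd74 changed by -0.01 ± 0.11 and Ciita by 0.18 ± 0.11, and for both the groups overlapped. H2-DMb2 had 203 and 231 CPM in liproxstatin members, against 180 and 178 CPM in control members (log2 0.29, adjusted p = 0.30). The rule's own H2-Eb1 had 4349 and 4517 CPM against 4247 and 4064 CPM, given with no test. Among 23 genes of interferon gamma signalling none passed (median 0.07), while 20 had a positive change and 9 lay higher in both liproxstatin libraries than in both control libraries, against 18.5% of all genes. Cxcl9 changed by 0.15 ± 0.13, and its groups overlapped. Cx3cr1 had 342 and 273 CPM in liproxstatin members, against 345 and 372 CPM in control members, without overlap and without passing the test (log2 -0.21, adjusted p = 0.49). Nor did any of 21 MHC class I or 18 chemokine genes pass, and Il1b, at 1769 and 1703 CPM in liproxstatin and 2031 and 840 CPM in control members, overlapped between groups.

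The other genes named by the smallest p have varied roles. Rgs1, which shortens chemokine receptor signals, had 845 and 837 CPM in liproxstatin members, against 553 and 584 CPM in control members (log2 0.58). Stk17b, a kinase linked to cell death, had 187 and 166 CPM against 109 and 117 CPM (0.66), and Rsrp1, a nuclear protein rich in arginine and serine, 148 and 173 CPM against 90.9 and 89.2 CPM (0.85). Dennd4a and Tmcc3 rose by 0.95 and 0.81. For these genes both liproxstatin libraries lay above both control libraries, as the naming rule requires.

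Fewer genes were lower. The formyl peptide receptor Fpr1 had 9.70 and 8.63 CPM in liproxstatin members, against 15.6 and 15.2 CPM in control members (log2 -0.74, adjusted p = 0.044). Smim4 had 50.9 and 50.4 CPM against 71.3 and 71.5 CPM (-0.48), Wwp1, a ubiquitin ligase, 40.8 and 33.6 CPM against 61.6 and 56.1 CPM (-0.65), and Spata7 22.6 and 19.3 CPM against 42.2 and 34.1 CPM (-0.85). The histone gene Hist1h2ap had 44.7 and 48.1 CPM against 96.6 and 75.8 CPM (-0.88), and Nxpe5 fell by 0.62. Cd79b and Ighm, genes of the B cell receptor, fell by 0.76 and 0.52. Cd79b had 14.6 and 15.1 CPM in liproxstatin and 25.9 and 24.9 CPM in control members, and 16.4 and 16.9 against 30.1 and 22.1 CPM in the remaining macrophages. The B cell markers Cd79a, Ms4a1 and Ly6d were at 0.0 to 2.4 CPM in members. The part of B cell transcripts in these falls was not tested. Klk1 (-3.60) and Serpinb1a (-2.63), which were named after their values were seen, had 92.1% and 86.3% of their UMIs in a single member of control replicate 2.

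Genes of respiration and of the cell cycle leaned lower without passing the test. Of 28 genes of oxidative phosphorylation, 18 had both liproxstatin libraries below both control libraries and none above, against 22.3% and 18.5% of all genes, with a median log2 change of -0.11, and none passed. In 23 tested cell cycle genes the median was -0.18, and 9 had both liproxstatin libraries below both control libraries and 1 above. The rule had set aside cells by Mki67, Top2a and Birc5, so it limited cell cycle transcripts in the members of all libraries. The other lists gave medians between -0.06 and 0.17, apart from NF-kappaB genes at 0.24, and no other calls than Per1 in the clock list, Tgfb3 in the cytokine list, Fpr1 in the chemoattractant receptor list and Chil3 in the monocyte list.

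In the remaining macrophages of the same tumours, the same test gave 44 of 12750 genes, 39 higher and 5 lower, or 0.345% (0.306% higher and 0.0392% lower). Without either liproxstatin library there were 2 calls, without control replicate 1 401 and without control replicate 2 471. Per1 changed there by 1.56, Tsc22d3 by 1.10, Fkbp5 by 1.28, Klf9 by 1.32, Slc7a11 by 0.98 and Cd80 by 0.84. Of these, Slc7a11 and Cd80 did not pass in the remaining macrophages (adjusted p = 0.33 and 0.056). Cd86 did pass there (0.53, adjusted p = 0.042). The difference in response between the classes was tested itself, with the library as a block, and none of these genes passed: the differences, members minus remaining macrophages, were 0.23 ± 0.16 for Per1, -0.11 ± 0.11 for Tsc22d3, 0.15 ± 0.28 for Slc7a11, 0.14 ± 0.18 for Cd80 and -0.74 ± 0.20 for Fpr1 (adjusted p from 0.74 to 1.00). Both classes came from the same 4 libraries, so their values are set side by side and are not independent.

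**Figure D5:**
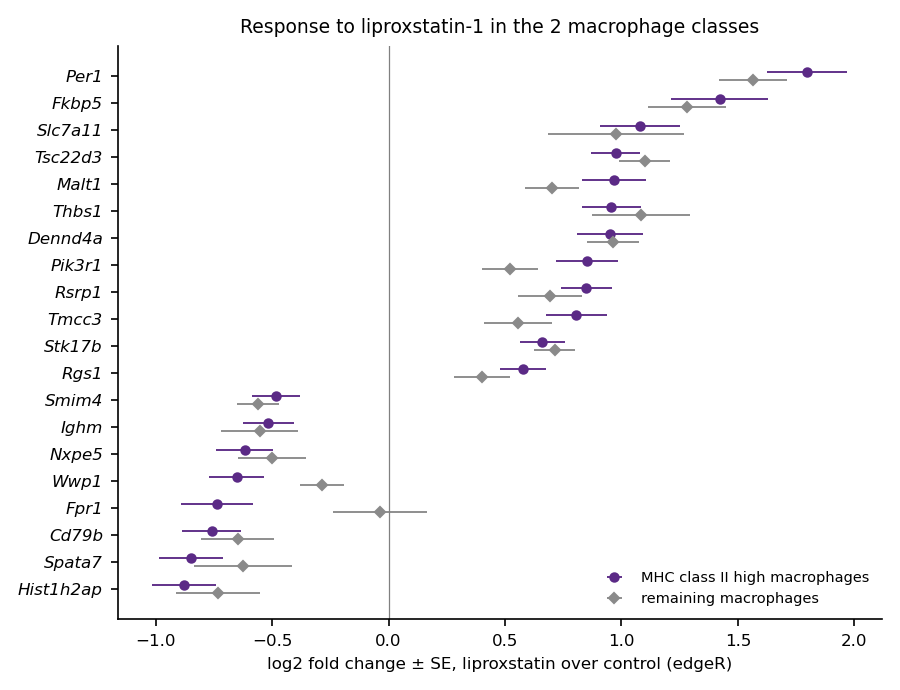
Log2 fold change with its SE, liproxstatin over control, of the 12 higher and 8 lower genes named by the smallest p in the members, in the members (circles) and in the remaining macrophages (diamonds). All 20 genes have the same sign in both classes, and Fpr1 lies at -0.74 in members and -0.04 in remaining macrophages.

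The response differed between the classes for 11 of 12552 genes (0.0876%), 4 more positive (0.0319%) and 7 more negative (0.0558%) in members, and 486 at an unadjusted p under 0.05. There were 7 without liproxstatin replicate 1, 166 without control replicate 1 and 147 without control replicate 2. By the naming rule Mgp, a matrix calcification inhibitor, was more positive, and the mast cell proteases Cma1 and Tpsab1 were more negative. Mgp had 4.25 and 30.3 CPM in liproxstatin and 2.73 and 7.84 CPM in control members, and the test of the difference (2.61 ± 0.18, adjusted p = 1.4e-06) sets these against the remaining macrophages of each library. Cma1 had 1.94 and 4.36 CPM in liproxstatin members, against 24.9 and 30.5 CPM in control members, and 93.3% and 90.03% of the control UMIs came from a single member each. The 4 markers of mast cells and basophils together came to 0.6 and 3.2 CPM in liproxstatin and 9.3 and 13.7 CPM in control members, against 5.7 and 10.1 CPM in liproxstatin and 5.0 and 1.8 CPM in control remaining macrophages. Their part in the difference was not tested. With doublet-called cells left out, 2 genes differed, Ctsk and Inhba, and the difference of Mgp was 0.08.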

How the data were processed

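UMI counts per gene and cell were deposited by the authors as unnormalized matrices for 4 libraries. Cell Ranger is given as 6.1.1 per the file headers but as 4, with build mm10, per the submitters' processing notes. The sources used here do not give vehicle, batch or animals per library.

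Of 29092 barcodes, 27447 with at least 200 genes and under 15% mitochondrial UMIs were kept, in liproxstatin replicates 1 and 2 (8224 and 8709) and control replicates 1 and 2 (3881 and 6633). Total UMIs were 168597163 and 165165389 in liproxstatin and 83129874 and 162158147 in control libraries. Doublets were scored with Scrublet in scanpy 1.11.5. The highest-scoring cells of each library were called doublets, at a rate fixed at 0.8% per 1000 barcodes. That rate took 6.93% and 7.44% of liproxstatin and 3.30% and 5.59% of control cells, which were kept. Scrublet's own threshold called 142 and 208 cells in liproxstatin and 1 and 5 in control libraries.

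UMIs were summed per class and library and tested in R 4.3.3 with edgeR 4.0.16 (filterByExpr, TMM, robust quasi-likelihood test, Benjamini-Hochberg adjusted p under 0.05). The difference in response had the library as a block. The SE is the log2 fold change over the square root of F. Replicates differed beyond sampling noise (chi-square over degrees of freedom 9.84 in liproxstatin and 7.65 in control libraries). Data with 200 changed genes among 11606 were simulated for the members. Of log2 changes of 1 and of 2, 97% and 100% were recovered, with 31 false calls. Those false calls were a larger share of all calls than the 0.05 that the adjusted p aims at. Recovery was not split by expression level, so it is not read for calls at low CPM, such as Chil3 and Nt5e. Nor is it the power on the real libraries, where the calls rested on the libraries present.

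The members, gene lists and tests were chosen with earlier results of these data known. Genes were named as markers, as the 12 smallest p in each direction with no overlap between groups and a mean of at least 10 CPM (6 for the difference in response), as the 12 highest and 12 lowest mean ratios to the remaining macrophages, or as called or abundant list members. Other genes were chosen after their values were seen. The 20 genes of the rule were not taken out of the fits or the counts of calls. They were left out of the lists and of the naming by p or by ratio. Their values chose the cells, so their tests are not read as results. Alternatives were DESeq2 1.42.0, another filter, the replicate number as a block, each library left out, doublets or cells with dendritic cell genes left out, other limits, thinned cells and equal cell numbers.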

Additional observations from a re-analysis of the deposited data

Results flagged for a closer look

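In 11 genes the test of the difference in log2 response, members minus remaining macrophages, passed the threshold (edgeR quasi-likelihood test, Benjamini-Hochberg adjusted). More negative in members were the mast cell proteases Cma1 (-5.92, adjusted p = 6.19e-12), Mcpt4 (-6.41, 0.00359), Tpsab1 (-5.31, 0.00359) and Tpsb2 (-4.65, 0.0126), with the protease Ctsk (-3.52, 0.0126), the haemoglobin chain Hba-a2 (-2.94, 0.011) and the protease inhibitor Serpinb1a (-3.46, 0.000534). More positive were the chemokine Ccl22 (4.16, 0.0063), the secreted Retnla (4.21, 0.000104), the activin subunit Inhba (1.89, 0.0227) and Mgp (2.61, 1.4e-06).

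For most of these genes few cells held the UMIs. For Mcpt4, a single member held 66.7% and 86.7% of the UMIs in control libraries 1 and 2, and for Tpsab1 it was 83.5% and 87.3%. In the remaining macrophages of liproxstatin replicates 1 and 2, a single cell held 70.4% and 62.8% of the Ctsk UMIs. With doublet-called cells left out, Ctsk (-3.99, adjusted p = 0.0268) and Inhba (2.47, adjusted p = 0.0284) passed. The differences of the others were then -5.18 for Cma1, -6.34 for Mcpt4, -4.71 for Tpsab1, -4.22 for Tpsb2, -1.53 for Hba-a2, -3.02 for Serpinb1a, 3.86 for Ccl22, 3.62 for Retnla and 0.08 for Mgp. Inhba had 9.70 and 6.47 CPM in liproxstatin members, against 0.910 and 1.76 CPM in control members, and 8.46 and 6.28 against 4.93 and 4.69 CPM in the remaining macrophages.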

How the results depend on the processing

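The members' larger share of macrophages in liproxstatin libraries kept its direction under each alternative that pooled the percentiles, with differences of 5.71 to 10.9 percentage points when 1 library was left out. Of all kept cells the difference was 3.14 points. With percentiles within each library, the share of members among members and remaining macrophages was fixed in advance. The 2.12 points found there thus reflect the macrophages set aside earlier and cannot bear on the members' share. Against 74 genes changed in members, there were 381 calls with no filter on low counts, 113 with the top 50% by MHC class II, 151 with percentiles within each library, 30 with cells thinned (14 of the 74 among them) and 1 to 383 with 1 library left out. Against 44 genes in the remaining macrophages, there were 111 with the DESeq2 test, 523 with no filter, 5 with percentiles within each library, 68 with equal cells and 2 to 471 with 1 library left out. Against 11 genes that differed in response, there were 52 with no filter, 2 without doublets, 1 with the top 25%, 5 with the top 50%, 7 with cells thinned (none of the 11 among them), 5 with equal cells and 7 to 166 with 1 library left out. A near-equal number of calls in members did not always hold the same genes. Of the 74, 44 were among 74 calls with equal cells, 43 among 61 with the DESeq2 test and 54 among 93 with the top 25%. With doublets left out 67 were among 92 calls, and with cells with dendritic cell genes left out 71 among 74. With cells thinned, the difference for Hba-a2 reversed to 1.08. The cause was not tested.

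The labels' replicate numbers are not stated to pair the libraries. Over 11606 genes, the differences between replicates 1 and 2 in the 2 groups had a Pearson correlation of 0.17. With the replicate block there were 443 calls in members and 21 in the difference in response, against 43 in the remaining macrophages.

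For single genes called in members, 398 alternatives kept direction and call and 131 kept direction without the call. For genes called in the difference in response, 104 kept both and 58 the direction. With 2 libraries a group, a left-out library leaves 1, which is assumed to vary like the others.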

Other observations

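Ccl8, a chemokine that draws monocytes, was set against Cxcl9 within members. After thinning to 5000 UMIs, 68.1% and 65.4% of members with Cxcl9 had a Ccl8 UMI in liproxstatin replicates 1 and 2, against 52.3% and 46.6% of those without. In control replicates 1 and 2 the shares were 78.5% and 78.4%, against 62.1% and 55.5%. T cells, which should lack Ccl8, had a UMI of it after thinning in 19.7% and 16.8% of cells in liproxstatin and 35.5% and 29.4% in control libraries, so the higher shares of the control libraries cannot be read as expression. For Il1b the shares were 79.1%, 78.2%, 83.2% and 73.2% in members with Cxcl9, against 81.2%, 84.9%, 78.8% and 77.3% in those without. These shares are descriptions of cells from 4 libraries and were not tested, and the part of free RNA in them was not tested.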
